A study of Mus musculus with 18 samples.

Results

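Fibroblast growth factors (FGFs), the receptors that bind them and the Sprouty proteins that restrain receptor signalling were followed through 3 lines of C2C12 cells, each as myoblasts and as myotubes. The group held 10 genes of the 55450 in the deposited count table. Its receptors were Fgfr1, Fgfr2, Fgfr3, Fgfr4 and Fgfrl1, its ligands Fgf2 and Fgf7, and its feedback inhibitors Spry1, Spry2 and Spry4. The genes were chosen for their known part in myoblasts and because Fgfr2 was lost in overexpressor cells, so values of overexpressor against control are given here as a description, without a test. All 10 genes passed the filter on low counts.

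C2C12 is a mouse myoblast line that fuses into multinucleated myotubes when serum is withdrawn. The control was an uncloned population that received the empty pX458 vector and was sorted for EGFP. The lines labelled Dlk1-Dio3 overexpressor and Dlk1-Dio3 knockout each grew from a single sorted cell after CRISPR-Cas9 deletion in the proximal promoter of Meg3, a noncoding RNA gene of the imprinted Dlk1-Dio3 cluster. Myotubes were taken on day 3 in medium with horse serum, and each of the 6 groups held 3 libraries, A, B and C, of polyadenylated RNA. Each genotype was 1 line, so genotype, clone and cloning itself cannot be told apart, and the labels do not say whether the 3 libraries came from separate cultures.

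FGF receptors are receptor tyrosine kinases that dimerize when an FGF and heparan sulfate bind together, and they signal through the adaptor Frs2, Ras and the ERK kinases. In muscle precursors FGF signalling is known to favour proliferation and to hold back terminal differentiation. FGF2 is the standard myoblast mitogen, while FGF7 acts mainly on the IIIb form of Fgfr2. Sprouty genes are induced by ERK and their products inhibit the pathway in turn, and Spry1 is known for its part in the quiescence of muscle stem cells.

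The sequences upstream of 4 members are shown because the results turn on them: Fgfr2 and Fgfr4 were near 0 in the myoblasts of both clones, Fgf7 was low in the overexpressor, and Spry1 rose with differentiation. Each is printed 5′ to 3′ on the strand of the gene, taken from RefSeq windows of GRCm38.p6, with CpG dinucleotides in capitals. Bases inside an annotated exon of the same gene are not shown, which leaves 72 bases for Fgfr4 (chr13:55152568-55152639, plus strand) and 250 bases each for Fgfr2 (chr7:130266809-130267058, minus strand), Fgf7 (chr2:126034408-126034657, plus strand) and Spry1 (chr3:37639697-37639946, plus strand).
Fgfr2: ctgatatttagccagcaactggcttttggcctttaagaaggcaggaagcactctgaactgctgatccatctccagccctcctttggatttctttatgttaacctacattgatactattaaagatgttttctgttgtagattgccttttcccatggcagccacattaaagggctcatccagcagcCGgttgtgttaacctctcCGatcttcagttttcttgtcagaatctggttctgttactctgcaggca
Fgfr4: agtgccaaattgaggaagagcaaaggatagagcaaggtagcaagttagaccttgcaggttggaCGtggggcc
Fgf7: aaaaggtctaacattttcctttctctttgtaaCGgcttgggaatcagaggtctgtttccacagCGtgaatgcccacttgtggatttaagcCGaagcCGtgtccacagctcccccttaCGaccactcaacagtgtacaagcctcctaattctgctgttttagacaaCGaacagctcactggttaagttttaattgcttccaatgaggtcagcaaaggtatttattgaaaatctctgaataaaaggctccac
Spry1: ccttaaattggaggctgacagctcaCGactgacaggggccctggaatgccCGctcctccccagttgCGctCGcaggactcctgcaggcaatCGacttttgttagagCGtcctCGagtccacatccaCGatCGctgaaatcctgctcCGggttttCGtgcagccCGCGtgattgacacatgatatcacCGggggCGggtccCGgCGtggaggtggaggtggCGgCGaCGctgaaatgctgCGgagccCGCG

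The windows differ in CpG content. The Fgfr2 window held 2 CpG and the Fgf7 window 6, against 23 in that of Spry1. Over all 32841 windows of 250 bases the median was 6 CpG, and 18.8% of windows held fewer than that of Fgfr2. The full Fgfr4 window, with its exonic part, held 15 CpG. Windows were found for 8 of the 10 members, with 2 for Fgfr3, and not for Fgfr1 and Spry4. The Spry2 window also held 23 CpG, that of Fgf2 20, that of Fgfrl1 30, and the Fgfr3 windows 19 and 24. On either strand, the general E-box CANNTG, the core that myogenic factors such as MyoD bind, occurred once in the windows of Fgfr2, Fgf7, Fgfrl1 and Spry2 and in that of Fgfr3 with 19 CpG, in 2 copies in those of Fgfr4 and Spry1, and in 66.2% of all windows. Its form CAGCTG, a subset of CANNTG, was found in 1 member window, the same Fgfr3 window, and in 13% of all windows. The ETS core CCGGAA, which ERK-regulated ETS factors bind, was found in the windows of Fgfr4 and Fgfrl1 and in 12% of all windows. The GC box GGGCGG was found in both Fgfr3 windows and in those of Fgfr4, Fgfrl1, Fgf2 and Spry1, and in 32.7% of all windows. The MEF2 and CArG boxes, found in 1.69% and 1.47% of all windows, were in no member window. No motif copy of the full Fgfr4 window lies wholly within the 72 bases printed above. The windows of Fgfr2, Fgf2 and Fgfrl1 and the Fgfr3 window with 24 CpG lie within the annotated bounds of their genes.

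Library totals ran from 41544358 to 79140702 counts. A library with 0 counts of a gene can still hold up to 3 counts' worth of it, which is 0.0375 to 0.0693 CPM (counts scaled by library size), a limit that covers counting error only. Meg3 had 0 counts in all 6 control and all 6 knockout libraries and 5222 to 7763 in each overexpressor library, so it does not separate the lines labelled knockout and control, and directions for the knockout rest on its label. All 7 muscle lineage markers were above this limit in every group. The summed level of 9 myotube markers was 293 to 437 CPM in control myoblasts, 462 to 750.3 in overexpressor myoblasts and 10030.5 to 12865 in knockout myoblasts. It was 15711 to 16174 CPM in control, 25313 to 27970.2 in overexpressor and 36969 to 45043 in knockout myotubes, so knockout myoblasts lay between control myoblasts and control myotubes. The summed level of 6 fibroblast markers was 349 to 369.5 CPM in control, 475 to 602 in overexpressor and 55.9 to 58.9 in knockout myoblasts. In myotubes it was 418 to 445 CPM in control, 47.7 to 52.0 in overexpressor and 66.3 to 78.4 in knockout, with the fibroblast genes Pdgfra and Dcn, and Ly6a and Cd34, which myogenic cells can also express, detected in all 6 groups. Epithelial markers reached 69.3 to 77.0 CPM in overexpressor myoblasts, nearly all of it from Krt19, with Epcam at 0 counts. Endothelial markers summed to at most 0.669 CPM and leukocyte markers to at most 2.65 CPM in any library. Fewer cells of a type and less RNA per cell cannot be told apart in these bulk libraries, and the part of these shifts in the results below was not tested.

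Per kilobase of exon, Fgfr1 led the receptors in control myoblasts, at 20.8 ± 0.251 CPM per kilobase (SD, n = 3), followed by the truncated receptor Fgfrl1 at 14.6 ± 1.11 and Fgfr4 at 11.1 ± 0.800. Fgfr2 stood at 0.750 ± 0.0463 and Fgfr3 at 0.360 ± 0.00991 on the same scale, and the libraries of neighbours in this order did not overlap. In control myotubes the order was Fgfrl1, Fgfr1, Fgfr3, Fgfr4 and Fgfr2, where Fgfrl1 overlapped Fgfr1 and Fgfr3 overlapped Fgfr4. Both clones had another order as myoblasts, namely Fgfr1, Fgfrl1, Fgfr3, Fgfr4 and Fgfr2, where Fgfr4 and Fgfr2 overlapped in the knockout. These orders were the same whether a gene's length was its joined exons or its median transcript.

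**Figure D1:**
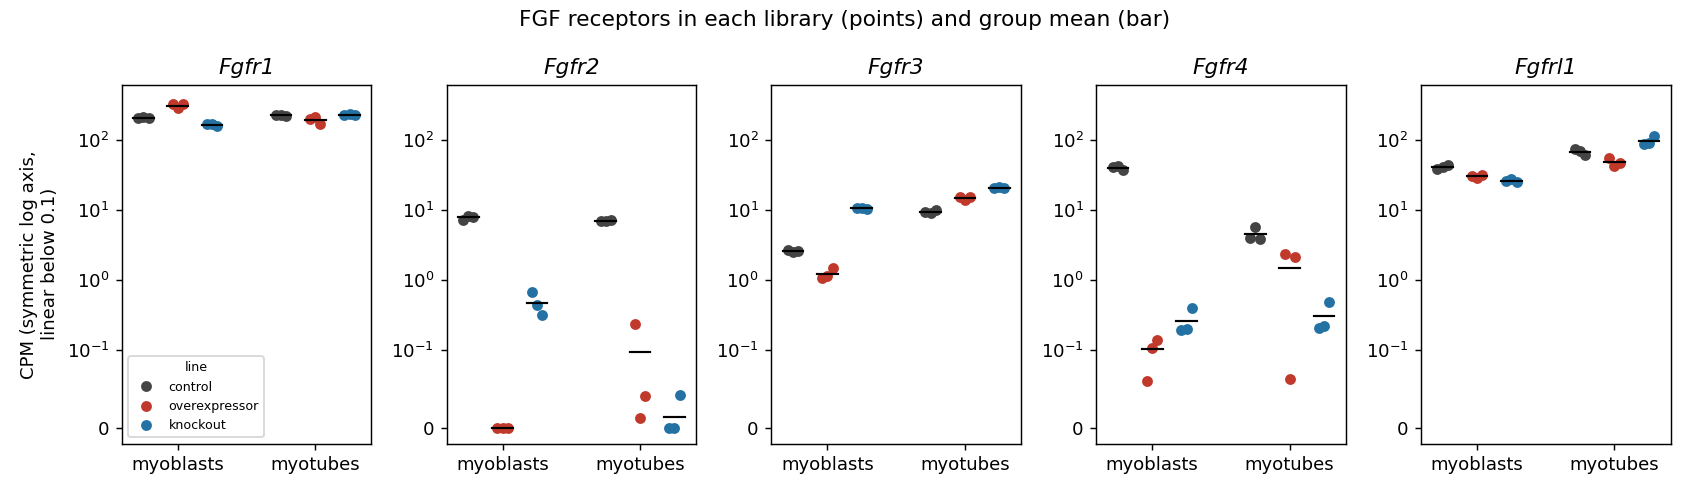
CPM of the 5 receptor genes in each library (points) with the group mean (bar), by line and stage, on a symmetric log axis that is linear below 0.1 CPM. Fgfr1 varied within 155 to 319 CPM over all 18 libraries, whereas Fgfr2 and Fgfr4 were under 1 CPM in the myoblasts of both clones and at 7.21 to 8.11 and 36.3 to 41.9 CPM in control myoblasts.

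Fgfr2 (chromosome 7, 130162451 to 133123350, minus strand, protein coding, GRCm38) encodes the receptor whose IIIb form binds FGF7 and FGF10. Control myoblasts held 7.21, 8.11 and 7.93 CPM in libraries A, B and C, from 385, 422 and 356 counts. Overexpressor myoblasts held 0 counts in all 3 libraries, at least 120-fold lower than control when set against 3 counts per library. This loss is the value the gene was chosen on. The receptor was near 0 in the other clone too, where myoblasts held 31, 24 and 18 counts, or 0.667, 0.437 and 0.320 CPM. That was a log2 fold change of -4.04 against control (SE 0.37, edgeR quasi-likelihood adjusted p = 2.41e-07), or 16.5-fold lower, with no overlap of libraries. The control libraries are also the reference for the loss the gene was chosen on. Neither this test nor the later tests of Fgfr2 that use control libraries stand apart from that choice.

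Control myotubes held 6.95, 6.87 and 7.03 CPM of Fgfr2, below every control myoblast library. The change from control myoblasts did not pass the test (log2 fold change -0.16, 95% interval -0.78 to 0.47). Knockout myotubes held 0, 0 and 2 counts in libraries A, B and C, against 367, 300 and 390 in control. The ratio of control to knockout over the summed counts was 578, with an exact 95% interval of 160 to 4778 for counting error only (edgeR adjusted p = 6.33e-09). Within the knockout line myotubes were lower still than myoblasts, by a ratio of 38.5 with an exact 95% interval of 10.3 to 324 (edgeR adjusted p = 1.48e-04). Overexpressor myotubes held 16, 1 and 3 counts, or 0.238, 0.0125 and 0.0417 CPM, so library A alone rose clearly above the 3-count limit. Fgfr2 thus showed no change that passed the test through differentiation in the control population, and it was near 0 at both stages in both clones.

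The annotated Fgfr2 model extends far beyond the RefSeq gene, which ends at 130266808, and its exons overlap those of Ctbp2 on the same strand, with 592 to 2651 counts per library. How reads shared by both genes were assigned is not given in the sources used here. The part of such reads in the Fgfr2 values was not tested.

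Fgfr4 (chromosome 13, 55152640 to 55168759, plus strand), a receptor typical of committed muscle precursors, gave a wider gap than Fgfr2 between knockout and control myoblasts. Between knockout and control myotubes its gap was the narrower one. Control myoblasts held 40.1, 41.9 and 36.3 CPM, from 1630 to 2177 counts. Knockout myoblasts held 9, 11 and 22 counts, or 0.194, 0.200 and 0.391 CPM, a log2 fold change of -7.20 (SE 0.73, edgeR adjusted p = 8.92e-07). Overexpressor myoblasts held 3, 5 and 6 counts, or 0.0599, 0.108 and 0.139 CPM, described by a log2 fold change of -8.59 against control. The clones' myoblast libraries did not overlap, but their difference did not pass the test (log2 fold change -1.38, 95% interval -4.22 to 1.45, edgeR adjusted p = 0.411).

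With differentiation Fgfr4 fell in the control line, to 3.96, 5.63 and 3.88 CPM in myotubes (log2 fold change -3.14, SE 0.54, edgeR adjusted p = 1.35e-04). Knockout myotubes held 0.205, 0.218 and 0.481 CPM, below every control library (-3.93, SE 0.72, edgeR adjusted p = 2.27e-04), with no change from their myoblasts that passed the test (0.13, 95% interval -2.06 to 2.33, edgeR adjusted p = 0.920). Overexpressor myotubes held 2.35, 0.0625 and 2.10 CPM, from 158, 5 and 151 counts, so libraries A and C stood far above library B. The increase from overexpressor myoblasts passed the test (3.85, SE 0.98, edgeR adjusted p = 0.00311), although library B overlapped the myoblasts. Against knockout myotubes the overexpressor was higher by 2.33 on the log2 scale (SE 0.77, edgeR adjusted p = 0.0172). This call was lost without overexpressor library A (adjusted p = 0.0739) or C (0.0710), and without knockout library A (0.0635) or B (0.0622). Without overexpressor library B the difference was 2.92.

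Libraries of overexpressor myotubes also differed from each other beyond this receptor. Over all genes with enough counts in a pair, the chi-square per degree of freedom was 22.8 for A and B. It was 117.8 for A and C and 112.5 for B and C, so library C stood furthest from the others by that measure. The highest value in any other group was 55.04, for A and C of knockout myotubes. Among 12 genes at the 3-count limit in overexpressor myoblasts and at 5 CPM or more in both control groups, 11 were above the limit in libraries A and C and 4 in library B. Fgfr2 itself is among these 12 genes, through the loss it was chosen on, so they do not stand apart from its values. Their summed level was 39.8, 22.7 and 67.9 CPM in A, B and C, or 11.8%, 6.74% and 20.2% of the control myotube mean. The part of this in the Fgfr4 and Fgfr2 values was not tested.

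Fgfr3 (chromosome 5, 33721674 to 33737068, plus strand) was higher in the knockout, unlike Fgfr2 and Fgfr4. It held 2.64, 2.50 and 2.58 CPM in control myoblasts and 10.7, 10.7 and 10.3 in knockout myoblasts, an increase of 2.04 on the log2 scale (SE 0.10, edgeR adjusted p = 7.21e-12). Overexpressor myoblasts held 1.06, 1.12 and 1.46 CPM, below every library of the other lines. Fgfr3 rose with differentiation in each line. Control myotubes held 9.26, 9.09 and 9.78 CPM (1.86, edgeR adjusted p = 1.01e-11). Overexpressor myotubes held 15.4, 13.7 and 15.1 (3.61, adjusted p = 6.55e-15), and knockout myotubes 20.6, 20.8 and 20.3 (0.96, adjusted p = 4.74e-08). Knockout myoblasts thus stood above control myotubes, and knockout myotubes stood above every other library. The knockout was 1.13 above control in myotubes (edgeR adjusted p = 4.12e-09), and the overexpressor was below the knockout by 3.13 in myoblasts and 0.48 in myotubes on the log2 scale (-3.13 and -0.48, adjusted p = 7.73e-14 and 1.64e-04).

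Fgfr1 (chromosome 8, 25513654 to 25575718, plus strand), a major FGF receptor of myoblasts, stayed between 155 and 319 CPM over the 18 libraries. Control myoblasts held 205, 208 and 203 CPM and knockout myoblasts 164, 165 and 155, a log2 fold change of -0.35 (SE 0.07, edgeR adjusted p = 2.76e-04). Overexpressor myoblasts held 319, 279 and 316 CPM, above all other libraries and 0.92 above the knockout (edgeR adjusted p = 1.96e-09). Control and knockout myotubes could not be separated, at 220.2, 222 and 219 CPM against 222, 231 and 221 (log2 fold change 0.03, 95% interval -0.11 to 0.17). In the overexpressor Fgfr1 fell with differentiation, to 195, 206.5 and 169 CPM (-0.68, edgeR adjusted p = 6.45e-08), and in the knockout it rose (0.48, adjusted p = 7.63e-06). In control it did not pass (0.10, 95% interval -0.04 to 0.24), and its sign turned to -0.14 when plain library totals set the scale. Overexpressor myotubes were below knockout myotubes by 0.24 on the log2 scale (-0.24, edgeR adjusted p = 0.00559), a call lost without overexpressor library C (adjusted p = 0.0991).

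Fgfrl1 (chromosome 5, 108692382 to 108706924, plus strand) binds FGFs but lacks the kinase domain. Control myoblasts held 37.6, 40.4 and 43.7 CPM, overexpressor myoblasts 30.7, 28.5 and 31.3, and knockout myoblasts 25.6, 27.7 and 24.5. Both clones lay below control, and the knockout by -0.64 on the log2 scale (SE 0.11, edgeR adjusted p = 5.95e-05). In knockout myotubes the order turned, with 85.7, 89.9 and 111 CPM against 72.2, 68.1 and 60.0 in control (0.52, edgeR adjusted p = 3.22e-04), while overexpressor myotubes held 54.7, 42.3 and 46.8, below the knockout (-0.995, adjusted p = 4.63e-07). It rose from myoblasts to myotubes by 0.72 in control, by 0.67 in overexpressor and by 1.88 in knockout cells, and each rise passed the test (edgeR adjusted p = 1.12e-05, 2.66e-05 and 1.08e-10).

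**Figure D2:**
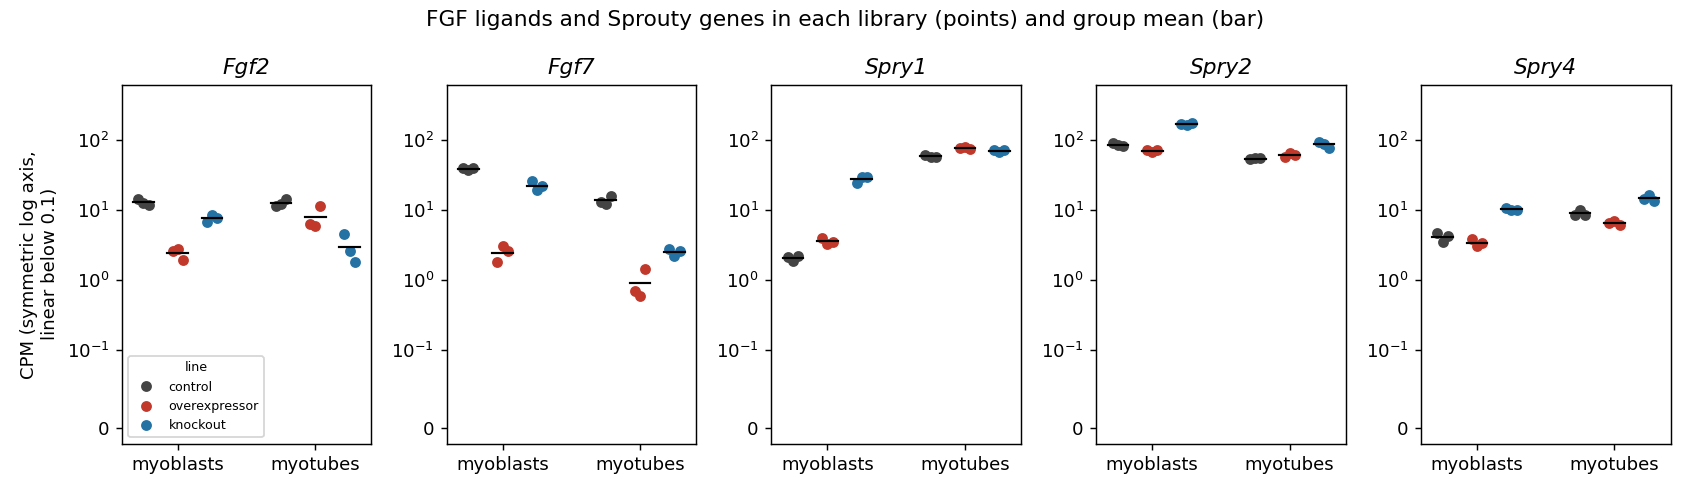
CPM of the 2 ligand and 3 Sprouty genes in each library (points) with the group mean (bar), by line and stage, on the same symmetric log axis. Fgf7 was lower in all overexpressor than in all control libraries of a stage, and Spry1 in knockout myoblasts, at 24.3 to 29.4 CPM, stood between control myoblasts at 1.86 to 2.18 and control myotubes at 55.7 to 60.0.

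Both ligands were lower in the myoblasts of both clones than in control myoblasts. Fgf7 (chromosome 2, 126034658 to 126091185, plus strand), a secreted factor best known from stromal cells, held 39.3, 36.8 and 39.4 CPM in control myoblasts and 25.3, 19.2 and 21.6 in knockout myoblasts (log2 fold change -0.80, SE 0.21, edgeR adjusted p = 0.00348). Overexpressor myoblasts held 1.78, 3.02 and 2.57 CPM, described by -3.97 against control. The gap between the clones was -3.17 for overexpressor against knockout (SE 0.24, edgeR adjusted p = 7.55e-09). Fgf7 fell with differentiation in all 3 lines, by 1.50 in control, 1.44 in overexpressor and 3.14 in knockout cells on the log2 scale (edgeR adjusted p = 9.56e-06, 1.49e-04 and 7.47e-09). Control myotubes held 12.8, 12.2 and 15.7 CPM, those of the overexpressor 0.698, 0.588 and 1.42, and those of the knockout 2.77, 2.18 and 2.57. The knockout was thus lower than control also in myotubes (-2.44, edgeR adjusted p = 1.01e-07), with no overlap, and the overexpressor lower than the knockout (-1.48, adjusted p = 1.55e-04). Fibroblast markers summed lower than control in knockout cells at both stages and in overexpressor myotubes, and higher in overexpressor myoblasts, where Fgf7 was low as well. Their part in the Fgf7 values was not tested.

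Fgf2 (chromosome 3, 37348346 to 37410108, plus strand) held 14.0, 12.6 and 11.8 CPM in control myoblasts, 6.76, 8.29 and 7.69 in knockout myoblasts and 2.61, 2.74 and 1.89 in overexpressor myoblasts. The 3 lines did not overlap. Knockout against control gave -0.75 (SE 0.28, edgeR adjusted p = 0.0314), a call that was lost without control library A (adjusted p = 0.0887) or B (0.0607), or without knockout library A (0.0992), B (0.0524) or C (0.0707). Differentiation left Fgf2 at 11.1, 11.9 and 14.4 CPM in control, with no change that passed (-0.04, 95% interval -0.62 to 0.54, edgeR adjusted p = 0.920), a value whose sign turned without library A of either stage (0.03 without the myoblast and 0.04 without the myotube library). It rose in the overexpressor to 6.24, 5.79 and 11.4 CPM (1.69, edgeR adjusted p = 1.27e-04) and fell in the knockout to 4.47, 2.61 and 1.78 (-1.35, edgeR adjusted p = 8.35e-04). The knockout, above the overexpressor as myoblasts (-1.65 for overexpressor against knockout, edgeR adjusted p = 2.34e-04), was therefore below it as myotubes (1.39, adjusted p = 7.42e-04). It was below control there too (-2.07, edgeR adjusted p = 1.36e-05). Exons of Fgf2 overlap those of Nudt6 on the opposite strand, which held 231 to 572 counts per library. The use of strand in counting is not given in the sources used here, so reads of the 2 genes could be confused.

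The 3 Sprouty genes were all higher in the knockout clone than in control at both stages. For Spry1 the overexpressor libraries also lay above those of control at both stages, a comparison described without a test. Spry1 (chromosome 3, 37639947 to 37644598, plus strand) lies on the same chromosome as Fgf2 and rose most with differentiation among the Sprouty genes. It held 2.10, 1.86 and 2.18 CPM in control myoblasts, 3.97, 3.30 and 3.44 in overexpressor myoblasts and 24.3, 29.4 and 29.4 in knockout myoblasts. The knockout was 13.5-fold above control (log2 fold change 3.76, SE 0.10, edgeR adjusted p = 2.09e-15), and the overexpressor was below the knockout (-2.95, adjusted p = 2.16e-14). In control cells Spry1 rose 28.1-fold with differentiation, to 60.0, 55.7 and 56.8 CPM (4.81, SE 0.10, edgeR adjusted p = 1.01e-16). The overexpressor rose to 77.0, 78.0 and 72.6 CPM (4.41, edgeR adjusted p = 2.14e-16), and the knockout, from its higher start, to 70.7, 67.5 and 71.1 (1.33, adjusted p = 1.94e-10). The gap between knockout and control narrowed to 0.28 in myotubes (SE 0.08, edgeR adjusted p = 0.00499). The clones' myotubes did not pass (0.12 for overexpressor against knockout, 95% interval -0.05 to 0.29), though the scaling by library totals gave 0.22 with an adjusted p of 0.0193. Myotube markers moved with Spry1 in the same groups, being higher in knockout than in control myoblasts and higher in the myotubes of every line, and their part in it was not tested. Exons of Spry1 overlap those of Gm42922 on the opposite strand, which held 0 to 112 counts per library. Spry1 itself held 97 to 112 counts in control myoblasts. The use of strand in counting is not given, and the part of shared reads in the Spry1 values was not tested.

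Spry2 (chromosome 14, 105891947 to 105896819, minus strand) held 88.7, 82.3 and 82.0 CPM in control myoblasts and 166, 159 and 174 in knockout myoblasts (0.98, SE 0.07, edgeR adjusted p = 1.60e-09). Overexpressor myoblasts held 70.4, 66.3 and 71.6 CPM, below control and below the knockout (-1.26 against the knockout, edgeR adjusted p = 4.68e-11). Unlike Spry1, Spry2 fell with differentiation in control, to 52.1, 54.2 and 54.0 CPM (-0.66, edgeR adjusted p = 1.90e-07), and in the knockout, to 92.5, 87.7 and 76.4 (-0.96, adjusted p = 2.01e-09). In the overexpressor it reached 56.3, 63.3 and 59.6 CPM, a change of -0.22 (edgeR adjusted p = 0.0124) that lost its call without overexpressor myotube library A (adjusted p = 0.0673) or C (0.0683) and with DESeq2 size factors (0.116). Knockout myotubes stayed above control myotubes (0.68, edgeR adjusted p = 1.33e-07), and overexpressor myotubes were below knockout myotubes (-0.52, adjusted p = 7.19e-06).

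Spry4 (chromosome 18, 38586247 to 38601415, minus strand) was the rarest of the 3 Sprouty genes per kilobase in the clones and in control myotubes. In control myoblasts its libraries overlapped those of Spry1 on that scale. It held 4.64, 3.52 and 4.28 CPM in control and 10.6, 9.98 and 9.89 in knockout myoblasts (1.29, SE 0.12, edgeR adjusted p = 6.87e-08). Overexpressor myoblasts, at 3.77, 3.02 and 3.35 CPM, overlapped control and lay below the knockout (-1.59, edgeR adjusted p = 5.12e-09). Control myotubes held 8.30, 10.0 and 8.33 CPM, and knockout myotubes 14.4, 16.2 and 13.2. Overexpressor myotubes held 6.43, 6.94 and 6.15 CPM, below the knockout (-1.16, adjusted p = 2.63e-07). The rise with differentiation was 1.10, 0.94 and 0.52 in control, overexpressor and knockout (edgeR adjusted p = 3.53e-07, 2.71e-06 and 8.55e-04), and knockout myotubes were 0.71 above control (adjusted p = 3.67e-05).

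The members were then counted against the share of all 17912 tested genes that passed at an adjusted p of 0.05. Between knockout and control myoblasts all 10 members passed, 4 higher and 6 lower, where 53.0% of all genes did (26.4% higher, 26.6% lower). Between knockout and control myotubes 9 passed, 5 higher and 4 lower, with 68.0% of all genes called (31.0% higher, 37.0% lower). Differentiation changed 7 members in control, 4 higher and 3 lower, with 62.8% of all genes called (33.9% higher, 28.8% lower). In the knockout it changed 9, 5 higher and 4 lower, with 65.4% called (29.8% higher, 35.6% lower). In the overexpressor all 9 members open to a test changed, 6 higher and 3 lower, with 62.8% called (29.8% higher, 33.0% lower). Overexpressor and knockout differed in 7 of 9 members as myoblasts, 1 higher and 6 lower in the overexpressor, with 52.6% of all genes called (25.7% higher, 26.9% lower). As myotubes they differed in 8 of 9, 2 higher and 6 lower, with 59.7% called (30.6% higher, 29.1% lower). Most genes of these cells changed in each comparison, so these counts alone do not set the members apart. The counts that use control libraries include Fgfr2, whose control values were part of its choice. The median log2 fold change of the members was -0.50 for knockout against control myoblasts, beside 0.02 over all genes tested, and 0.15 in myotubes, beside -0.07.

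**Figure D3:**
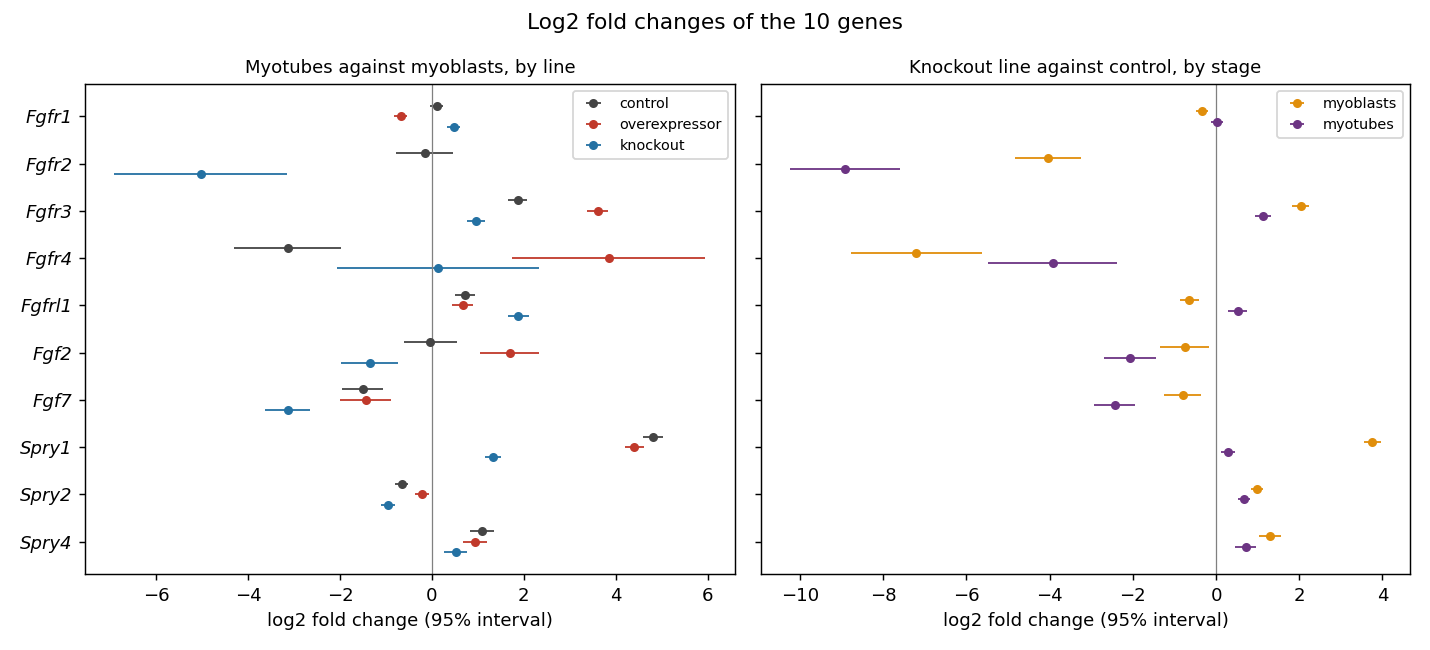
Log2 fold changes of the 10 genes with 95% intervals, for myotubes against myoblasts in each line (left) and for the knockout against control at each stage (right). Spry1 lies at 4.81 in control, 4.41 in overexpressor and 1.33 in knockout cells, while Fgfr2 in the overexpressor is left out and its points for knockout myotubes rest on 2 counts.

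Whether the knockout line responded to differentiation as control did was tested by the difference of the 2 responses. All 10 members passed, 3 with a higher and 7 with a lower response in the knockout, where 50.1% of all genes passed (20.2% higher, 29.9% lower) and the median over all genes was -0.12. The largest well-measured difference was that of Spry1, -3.48 (SE 0.12, edgeR adjusted p = 4.81e-13). Fgf7 fell further in the knockout, by -1.64 (adjusted p = 3.45e-04), and Fgfrl1 rose further, by 1.16 (adjusted p = 5.47e-06). Fgf2 differed by -1.31 (adjusted p = 0.0127), Fgfr3 by -0.90 (adjusted p = 2.08e-05) and Fgfr1 by 0.38 (adjusted p = 0.00337). The differences of Spry4 (-0.58, adjusted p = 0.00909) and Spry2 (-0.30, adjusted p = 0.0187) were smaller, and with DESeq2 size factors neither passed (adjusted p = 0.0517 and 0.241). For Fgfr4 the difference of 3.27 (adjusted p = 0.0312) was lost without library A or B of knockout myoblasts, A or C of control myotubes, or C of knockout myotubes (adjusted p from 0.0506 to 0.137), and for Spry2 without library C of the knockout at either stage (0.0534 and 0.0526). The value of Fgfr2, -4.88 (adjusted p = 7.27e-04), rests on 2 counts in knockout myotubes and uses the control libraries that its choice drew on. That of Fgfr4 starts from 9 to 22 counts per library in knockout myoblasts, where a fall as in control could hardly be seen.

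For completeness, overexpressor against control is given as values only. The log2 fold changes in myoblasts were 0.57 for Fgfr1, -1.09 for Fgfr3, -0.43 for Fgfrl1, -2.40 for Fgf2, 0.81 for Spry1, -0.28 for Spry2 and -0.29 for Spry4. In myotubes they were -0.21 for Fgfr1, -6.20 for Fgfr2, 0.65 for Fgfr3, -1.59 for Fgfr4, -0.48 for Fgfrl1, -0.67 for Fgf2, -3.92 for Fgf7, 0.40 for Spry1, 0.16 for Spry2 and -0.45 for Spry4. Libraries of the 2 lines overlapped for Spry4 in myoblasts and for Fgf2 in myotubes. As background, 40.4% of all genes passed the test in myoblasts (20.7% higher, 19.7% lower) and 57.1% in myotubes (26.2% higher, 30.9% lower), and nothing is read from these shares, which count calls and not overlap. In myotubes the share of higher among called genes was 45.8%, and 55.1% with DESeq2 size factors or 57.8% with library totals. Leaving out overexpressor library C moved Fgfr1 in myotubes to -0.03.

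The wider pathway was read from 9 lists of 106 genes in all, of which 86 could be tested. In the knockout against control 57 of them passed in myoblasts, 25 higher and 32 lower, and 72 in myotubes, 33 higher and 39 lower. Of all genes tested 53.0% passed in myoblasts (26.4% higher, 26.6% lower) and 68.0% in myotubes (31.0% higher, 37.0% lower), and the counts of each list below stand against these shares. Over the 86 genes the median log2 fold changes were -0.09 and -0.15, beside 0.02 and -0.07 over all genes.

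Ligands outside the group changed as well. Of 13 further paracrine FGFs 4 could be tested, and 3 passed in myoblasts, 2 higher and 1 lower in the knockout. Fgf9, a ligand of the IIIc receptors, held 665 to 801 counts in knockout myoblasts (13.8 ± 0.812 CPM, SD, n = 3) against 0 to 4 counts in control (edgeR adjusted p = 2.83e-13). In myotubes it held 7.40 CPM in the knockout and 0.653 in control (3.51, adjusted p = 1.12e-10). Fgf10, which like Fgf7 binds the IIIb form of Fgfr2, ran the other way, with 1.86 CPM in knockout and 8.15 in control myoblasts (-2.13, edgeR adjusted p = 4.13e-09). Control cells raised Fgf10 to 27.7 CPM as myotubes (1.76, edgeR adjusted p = 8.52e-09), while knockout myotubes held 0.584 (-5.54 against control, adjusted p = 5.39e-14). Fgf5 was higher in knockout than control myotubes, at 6.74 against 0.216 CPM (4.98, edgeR adjusted p = 1.68e-12). The endocrine Fgf21, a stress hormone of liver and muscle, rose from 1.24 to 153 CPM in control differentiation (6.95, edgeR adjusted p = 1.70e-14). It started at 13.1 CPM in knockout myoblasts (3.41 above control, adjusted p = 1.45e-10) and reached 61.9 in knockout myotubes, below control (-1.31, adjusted p = 6.02e-07). Of 8 co-receptors and binding proteins tested, 4 passed in knockout myoblasts, all higher, a share near the 53.0% of all genes. Among them was the adhesion molecule Ncam1 (0.49, edgeR adjusted p = 1.01e-06).

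**Figure D4:**
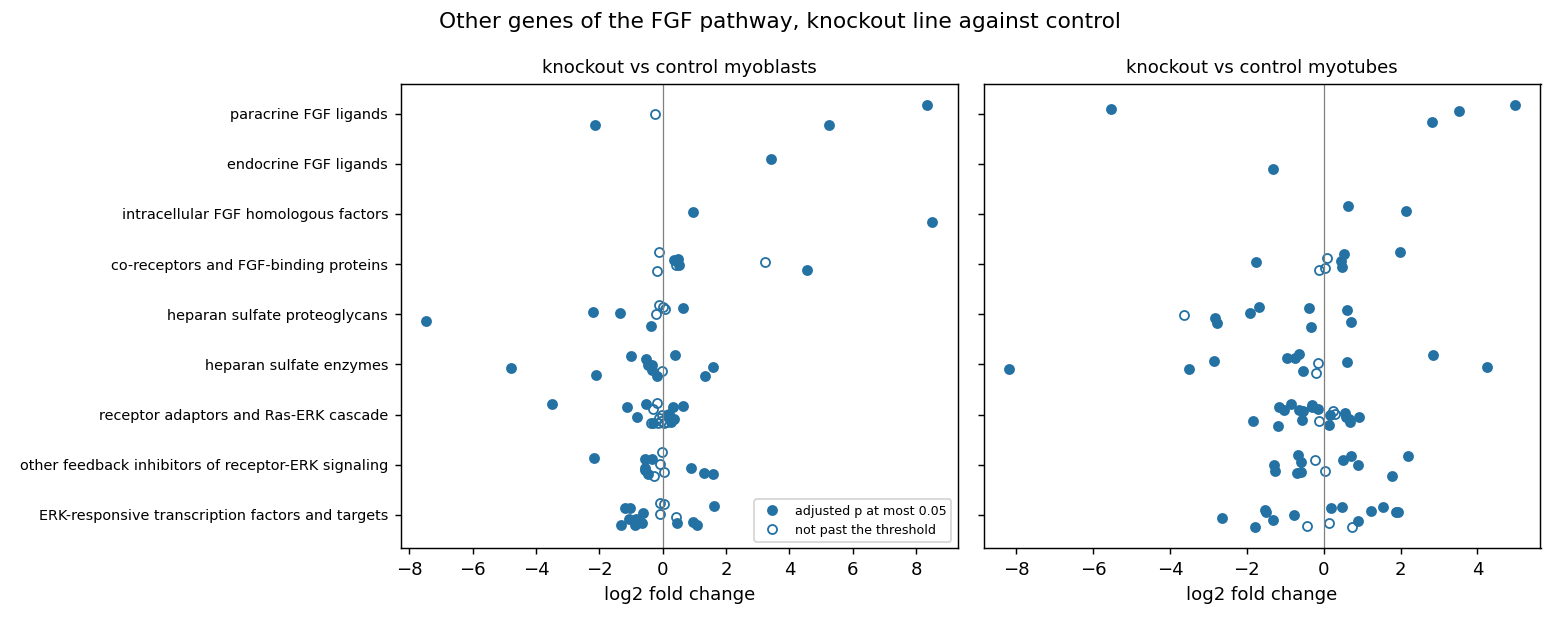
Log2 fold changes of the 86 tested pathway genes for the knockout against control in myoblasts (left) and myotubes (right), by list, with filled points for genes past an adjusted p of 0.05. Points lie on both sides of 0 in 7 of the 9 lists in myotubes, and the endocrine list holds only Fgf21.

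Heparan sulfate is the sugar chain that presents FGFs to their receptors, and single genes of its carrier proteins and its enzymes changed by large amounts. Of 9 proteoglycan genes tested, 1 was higher and 4 lower in knockout myoblasts, and 2 higher and 6 lower in knockout myotubes, beside 53.0% and 68.0% of all genes called. Syndecan Sdc3 fell from 350 to 76.6 CPM in myoblasts (-2.19, edgeR adjusted p = 1.09e-13) and from 283 to 39.7 in myotubes (-2.83, adjusted p = 3.43e-15), whereas the glypican Gpc1 was 0.65 and 0.60 higher (adjusted p = 6.33e-06 and 1.14e-05). Of 12 enzymes, 3 were higher and 8 lower in myoblasts, and 3 higher and 7 lower in myotubes, beside the same shares. The sulfotransferase Hs3st1 held 14.5 CPM in control and 0.522 in knockout myoblasts (-4.80, edgeR adjusted p = 4.47e-12), and 37.4 against 0.125 in myotubes (-8.19, adjusted p = 3.14e-14). The extracellular sulfatase Sulf1 was higher in the knockout, at 245 against 81.6 CPM in myoblasts (1.59, edgeR adjusted p = 2.03e-12) and 164 against 8.58 in myotubes (4.26, adjusted p = 2.59e-17). Its paralogue Sulf2 was lower in knockout myoblasts (-2.10, adjusted p = 1.09e-12). The overexpressor also held more Sulf1 than control, at 358 CPM in myoblasts and 125 in myotubes. Sulf2 was not lower in overexpressor myoblasts, at 283 CPM against 219 in control.

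Inside the cell, 10 of 21 adaptor and Ras-ERK genes passed in knockout myoblasts, 5 in each direction, where 53.0% of all genes did. In knockout myotubes 18 passed, 7 higher and 11 lower, where 68.0% of all genes did. The kinase gene Mapk3, which encodes ERK1, was lower in knockout myoblasts, at 102 against 221 CPM (-1.12, edgeR adjusted p = 2.14e-08), and Rps6ka1, an ERK-activated kinase, fell to 0.681 from 7.80 CPM (-3.50, adjusted p = 1.09e-10). In knockout myotubes Braf was lower (-1.83, adjusted p = 1.56e-07) and Hras higher (0.92, adjusted p = 2.37e-07). Rps6ka1 was also low in overexpressor myoblasts, at 0.956 CPM, while Mapk3 stood at 224 there. Means of overexpressor myotubes lay on the same side of control, at 18.5 against 30.7 CPM for Braf and 120 against 89.3 for Hras.

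Among 13 other feedback inhibitors, 9 passed in knockout myoblasts, 3 higher and 6 lower, and 11 in myotubes, 5 higher and 6 lower, beside 53.0% and 68.0% of all genes. Dusp6, an ERK phosphatase, was higher in the knockout at both stages, with 60.0 against 24.4 CPM in myoblasts (1.30, edgeR adjusted p = 4.86e-11) and 78.2 against 22.95 in myotubes (1.77, adjusted p = 4.92e-13). Dusp4 was 0.90 higher at both stages (adjusted p = 1.56e-08 and 1.08e-08). Both genes were above control in the overexpressor too, so these shifts are not particular to the knockout. Overexpressor myoblasts and myotubes held 36.2 and 61.9 CPM of Dusp6. For Dusp4 they held 109 and 58.4 CPM, against 35.8 and 23.1 in control. Spred1, a relative of the Sprouty genes, was lower in knockout myotubes (-1.28, adjusted p = 1.34e-05), and Dusp9 in knockout myoblasts (-2.17, adjusted p = 1.99e-08). Dusp9 was lower in overexpressor myoblasts as well, at 3.83 against 8.96 CPM. Spred1 in overexpressor myotubes, at 47.0 CPM, was near control at 49.1. In control differentiation 8 of the 13 passed and all 8 were lower, where 62.8% of all genes passed and 28.8% were lower. Dusp5 fell by 1.60 (edgeR adjusted p = 4.23e-11). Among the Sprouty members, Spry2 also fell there, while Spry1 and Spry4 rose.

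Among 16 ERK-responsive genes, 4 were higher and 8 lower in knockout myoblasts, and 7 higher and 6 lower in knockout myotubes, beside 53.0% and 68.0% of all genes called. The ETS factors Etv1 and Etv5 were higher in knockout myoblasts (1.62 and 1.10, edgeR adjusted p = 6.47e-07 and 7.06e-10), and Etv4 in knockout myotubes (1.87, adjusted p = 2.66e-10). Epha2 was lower at both stages (-1.18 and -1.79, adjusted p = 2.31e-10 and 6.95e-13), Junb in myoblasts (-1.31, adjusted p = 9.78e-10) and Fosl1 in myotubes (-2.65, adjusted p = 8.92e-09). Some shifts were shared by overexpressor myoblasts, with Etv1 at 7.35 CPM against 2.63 in control and Junb at 109 against 280. Etv4 in overexpressor myotubes was likewise above control, at 22.5 against 4.92 CPM. Epha2 was not lower in the overexpressor, at 187 CPM in myoblasts and 79.7 in myotubes, against 164 and 74.0 in control. In control differentiation 5 were higher and 8 lower, beside 33.9% and 28.8% of all genes, and the ETS relatives parted, with Etv5 at 30.9 against 7.92 CPM (1.96, edgeR adjusted p = 1.11e-13) and Etv4 at 4.92 against 26.3 (-2.42, adjusted p = 6.34e-12). Ccnd1, the cyclin of cell cycle entry, fell from 256 to 49.3 CPM (-2.38, adjusted p = 4.95e-08).

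Between the 2 clones 59 of the 86 pathway genes passed in each stage, 33 higher and 26 lower in overexpressor myoblasts and 36 higher and 23 lower in overexpressor myotubes. Of all genes 52.6% passed in myoblasts and 59.7% in myotubes. Of the 13 other feedback inhibitors 9 passed in myoblasts, 6 higher and 3 lower in the overexpressor. Spred3 and Dusp4 were higher (0.76 and 0.71, edgeR adjusted p = 4.44e-05 and 2.69e-07), and Dusp6 and Il17rd, a receptor-like inhibitor, were lower (-0.73 and -1.11, adjusted p = 8.92e-08 and 1.99e-08). Sdc3 and Sulf2, low in knockout myoblasts, were higher in overexpressor myoblasts by 2.10 and 2.47 (adjusted p = 1.59e-13 and 1.35e-13). As myotubes the overexpressor was again higher in Sdc3 (1.07, edgeR adjusted p = 2.49e-09). It was lower in Sulf2, at 18.5 against 32.7 CPM (-0.82, adjusted p = 4.31e-07). Fgf9 was at 0 to 1 count in overexpressor myoblasts. In myotubes Fgf5 was higher in the overexpressor, at 18.5 against 6.74 CPM (1.45, edgeR adjusted p = 3.79e-07), and Dusp6 was lower by a small amount (-0.34, adjusted p = 5.35e-04).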

How the data were processed

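Polyadenylated RNA from 18 libraries of C2C12 cells, 3 per line and stage, was analysed from the raw counts per Ensembl gene deposited by the authors. The submitters' processing notes name STAR 2.7.9a, featureCounts of Subread 2.0.3, FastQC 0.11.7, DESeq2 1.32.0 and the build mm10. Neither the annotation release nor the strand setting is given in the sources used here. A second deposited table, of transformed values, was not used.

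Symbols and positions came from the GENCODE annotation of GRCm38, the same build, for 55190 of 55450 gene IDs. The test was the robust quasi-likelihood F-test of edgeR 4.0.16 (R 4.3.3). Library sizes carried TMM factors between 0.895 and 1.08, and filterByExpr, given the groups, kept 17912 genes with at least 99.973% of each library's counts. A single model of 6 group means was fitted to the 18 libraries (12 residual degrees of freedom), and 8 contrasts were tested. P-values were adjusted by Benjamini-Hochberg over all tested genes, with a threshold of 0.05. Intervals of log2 fold changes are 95%. The fit was also run on simulated data with known changes in a small part of the genes, in a single group and equally in both directions. In these data most genes changed, so that run does not test the scaling. P-values measure only the spread between these libraries, which may be technical.

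Levels are CPM of TMM-scaled libraries, or CPM per kilobase of joined exons. Promoter windows of 250 bases came from RefSeq (GRCm38.p6). The members, the lists and the rules were chosen with earlier results of these data known. All members are named. From a pathway list, a gene is named in a contrast where it passes, its libraries do not overlap, its higher group reaches 5 CPM and it is among the 2 highest or 2 lowest of its list. Values of a gene so named are also given for other groups. The 3 genes most like Fgfr2 and Fgfr4 in pattern are named too. Alternatives were DESeq2 size factors, library totals, the Wald test of DESeq2 1.42.0, no filter, only the groups compared, the replicate letter as a block, the median transcript length, and each library left out. Adipocyte markers, a further marker list, summed to at most 19.7 CPM in any library.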

Additional observations from a re-analysis of the deposited data

Results flagged for a closer look

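The response to differentiation differed between the knockout and control lines in all 10 members by a test of the difference itself (edgeR quasi-likelihood, all genes adjusted together). On the log2 scale, knockout minus control, the difference was 0.38 for Fgfr1, -4.88 for Fgfr2, -0.90 for Fgfr3, 3.27 for Fgfr4, 1.16 for Fgfrl1, -1.31 for Fgf2, -1.64 for Fgf7, -3.48 for Spry1, -0.30 for Spry2 and -0.58 for Spry4. At the same threshold 50.1% of all genes differed. With each library left out in turn 8 to 10 members passed. The calls of Fgfr4, Spry2 and Spry4 were lost in other settings, and those of Fgfr4 and Spry2 also without single libraries. The Fgfr2 value rests on 2 counts in knockout myotubes and uses the control libraries that its choice drew on. Fgfr4 held 9 to 22 counts per library in knockout myoblasts, where a fall as in control could hardly be seen.

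In a pair of genes myotube and myoblast libraries did not overlap, and the direction in the overexpressor was opposite to that in another line. These differences were not tested. Fgfr1 was lower in all overexpressor myotubes than in all overexpressor myoblasts (log2 fold change -0.68), and higher in myotubes than in myoblasts in every library of control and of the knockout. The control change of 0.10 did not pass the test, and it was -0.14 with library totals. Fgf2 was higher in all overexpressor myotubes than in their myoblasts (1.69), and lower in the knockout (-1.35).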

How the results depend on the processing

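Of 45 correlations between same-letter deviations 4 were over 0.1, and the lowest was -0.36. Pairs of different letters were not compared, so whether the letters pair the libraries is not settled by this. With the letter as a replicate block the members called were 10, 9, 7 and 8 for knockout against control and overexpressor against knockout, myoblasts before myotubes, then 7, 9 and 9 for differentiation in control, overexpressor and knockout, and 10 for the response difference, the same counts as without it. Leaving out each library in turn gave 9 to 10, 9, 7, 6 to 8, 7, 8 to 9, 9 and 8 to 10, in the same order. Over the other settings the pathway counts stayed within 1.5 times.

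Signs turned in values that never passed the test. Fgfr1 in control differentiation was -0.14 with library totals. Fgf2 in control differentiation was 0.035 without myoblast library A and 0.041 without myotube library A, and ran from -0.15 to 0.041 over all libraries left out. Fgfr4 in knockout differentiation was -0.034 with library totals, -0.026 and -0.040 without myoblast library A or B, and -0.325 without myotube library C, with a range of -0.325 to 0.56 over all libraries left out. Calls were also lost for Fgf2 in knockout against control myoblasts with no filter (adjusted p = 0.0955), for Fgfr4 and Fgfr1 in overexpressor against knockout myotubes with only the groups compared (0.105 and 0.0835), and for the Spry2 response with library totals (0.105), the DESeq2 Wald test (0.264) and only the groups compared (0.0807). They were lost too for Fgfr1 in overexpressor against knockout myotubes with library totals (0.0903), for the Fgfr4 response with no filter (0.0792), and for Spry2 in overexpressor differentiation with no filter (0.0767), the DESeq2 Wald test (0.127) and only the groups compared (0.0507). Fgfrl1 in overexpressor against knockout myoblasts passed with only the groups compared (0.0336). The cause was not tested.

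With the median transcript in place of joined exons, 8 of the 60 ranks of the 10 members in the 6 groups kept their place, so levels are ordered here only within the receptors, where all 6 orders held, and within the Sprouty genes, where 5 of 6 held. The scaling moved the all-gene median of the response difference from -0.12 to 0.04 with DESeq2 size factors, and the share of higher among called genes from 40.4% to 52.0%. With library totals that share went from 54.0% to 37.9% in control differentiation and from 45.5% to 34.0% in the knockout, and with DESeq2 size factors the all-gene median in knockout differentiation moved from -0.08 to 0.04. Depth limits Fgfr2 and Fgfr4 in the clones, where groups held 0 to 31 counts per library outside overexpressor myotubes.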

Other observations

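Genes were ranked by the likeness of their pattern to that of Fgfr2 and Fgfr4. Over the 18 libraries, which fall into 6 groups that share lines and stages, Fgfr2 was most like Col8a2 (Pearson r = 0.975 of log2 CPM), Slc38a1 (0.969) and Nrep (0.965) among 10857 genes. Col8a2, a collagen gene, had a mean of 46.4 CPM in control myoblasts against 1.60 in those of the overexpressor and 5.35 in those of the knockout, and 25.8, 2.50 and 1.55 in myotubes. Slc38a1, an amino acid transporter gene, varied less, with 118, 57.5 and 75.8 CPM in myoblasts and 117, 65.0 and 61.6 in myotubes (control, overexpressor and knockout). Nrep had 47.2, 0.331 and 3.08 CPM in myoblasts and 42.04, 3.15 and 0.950 in myotubes. Fgfr4 was most like Bhlhb9 (0.974), St8sia2 (0.966) and Ripk3 (0.962). St8sia2, which makes the polysialic acid of NCAM, had 24.5 CPM in control myoblasts, a mean of 0 in the myoblasts of both clones, and 6.16, 0.637 and 0 CPM in control, overexpressor and knockout myotubes.

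In overexpressor cells Fgf10 was also low, at 0.497 CPM in myoblasts and 0.226 in myotubes, against 8.15 and 27.7 in control. Hs3st1 was at 0.0508 and 0.106 CPM there, against 14.5 and 37.4 in control. Fgf21 rose in overexpressor differentiation from 0.870 to 90.2 CPM (edgeR adjusted p = 4.17e-14).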
